A study of Mus musculus with 2 samples.

Results

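The enzymes that break down amino acids were followed as a set of 37 genes in kidneys of male mice with acute kidney injury (AKI). Members were found by gene symbol: a probe set belonged to the set if the platform annotation gave it a single symbol that is one of the 37. By this rule 36 of the 37 genes were represented, by 65 of the 45101 probe sets on the array, out of 18194 named genes in all. Amt, the aminomethyltransferase of the glycine cleavage system, had no probe set under this rule and is not analysed here.

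The pools compared were EST KO AKI, kidney tissue of 6 mice without estrogen sulfotransferase (EST, the product of Sult1e1, which inactivates estrogens by adding sulfate), and WT AKI, kidney tissue of 3 wild-type mice. Both were from male C57BL/6 mice, given as 8 weeks old for the wild type, that had 30 min of warm bilateral renal ischemia and were killed 24 h after it. Each pool gave 1 array, made from 124 mg of tissue in the EST KO AKI pool and 180 mg in the WT AKI pool. How the EST allele was made is not given in the labels, no uninjured kidney was analysed here, and with 1 array per genotype the spread between mice is unknown, so no test and no p-value are given. The probe set of Sult1e1 read 17.2 in the EST KO AKI pool and 472.7 in the WT AKI pool, both below background, so it does not check the genotype.

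Amino acid breakdown often starts with the removal or transfer of the amino group. The remaining carbon skeletons pass through chains of dehydrogenases, carboxylases and hydratases, most of them in mitochondria. They end in the citric acid cycle, in ketone bodies or in the one-carbon pool. Liver is the best known site. In the kidney these enzymes are concentrated in the proximal tubule, the segment that takes back filtered amino acids, and their products feed renal glucose and ammonia production. Several of the genes are also strongly expressed in hepatocytes, which matters here because one label field of the EST KO AKI pool speaks of liver while the others give kidney.

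Values are linear intensities, and a ratio is that of the EST KO AKI pool over the WT AKI pool at the brightest probe set of a gene. Background was the 95th percentile of 129 probe sets for receptor and hair protein families that are mostly silent in kidney, 638.3 on the EST KO AKI array and 676.1 on the WT AKI array. A gene above it in at least 1 pool was called measured. A value below background was held at background, so that such a fold is a lower bound, written "at least". Across 1663 genes read above background in both pools by 2 or more probe sets, the log2 ratios of the 2 brightest had an SD of 0.28 about their gene's mean. That SD is the only error these arrays allow, and it covers differences between probe sets, not between mice.

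The enzymes were mostly higher in the EST KO AKI pool. Of the 36 represented members, 28 were measured: 21 lay above background in both pools, 6 in the EST KO AKI pool only and 1 in the WT AKI pool only. Of the 28, 26 were higher and 2 lower in the EST KO AKI pool, beside 43.6% of all measured genes that were higher. At least 2-fold higher were 9 of 28 members (32.1%), against 3.02% of the 7480 measured genes. None was lower by 2-fold or more, against 1.4% of measured genes. At least 1.5-fold higher were 16 members (57.1%), against 8.46% of measured genes, and none was 1.5-fold lower, against 7.43%. A member that passes background only through the pool where it is high has to differ, so the 21 members above background in both pools are also given: 20 were higher, 8 of them at least 2-fold, and 1 was lower. Of the 6115 genes of any kind above background in both pools, 44.8% were higher and 3.03% at least 2-fold higher.

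The median log2 ratio of the 28 measured members was 0.74, with quartiles at 0.31 and 1.27, and the extremes were −0.26 and 2.60. For the 21 members above background in both pools it was 0.75. All measured genes with an order had a median of −0.06, with quartiles at −0.28 and 0.21. Of the 21 members, 18 were higher by more than the probe set SD and the other 3 (Aadat, Glud1 and Got2) lay within it. For the 6115 genes of any kind above background in both pools the quartiles were −0.27 and 0.21, both within that SD. The SD is no measure of significance.

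**Figure D1:**
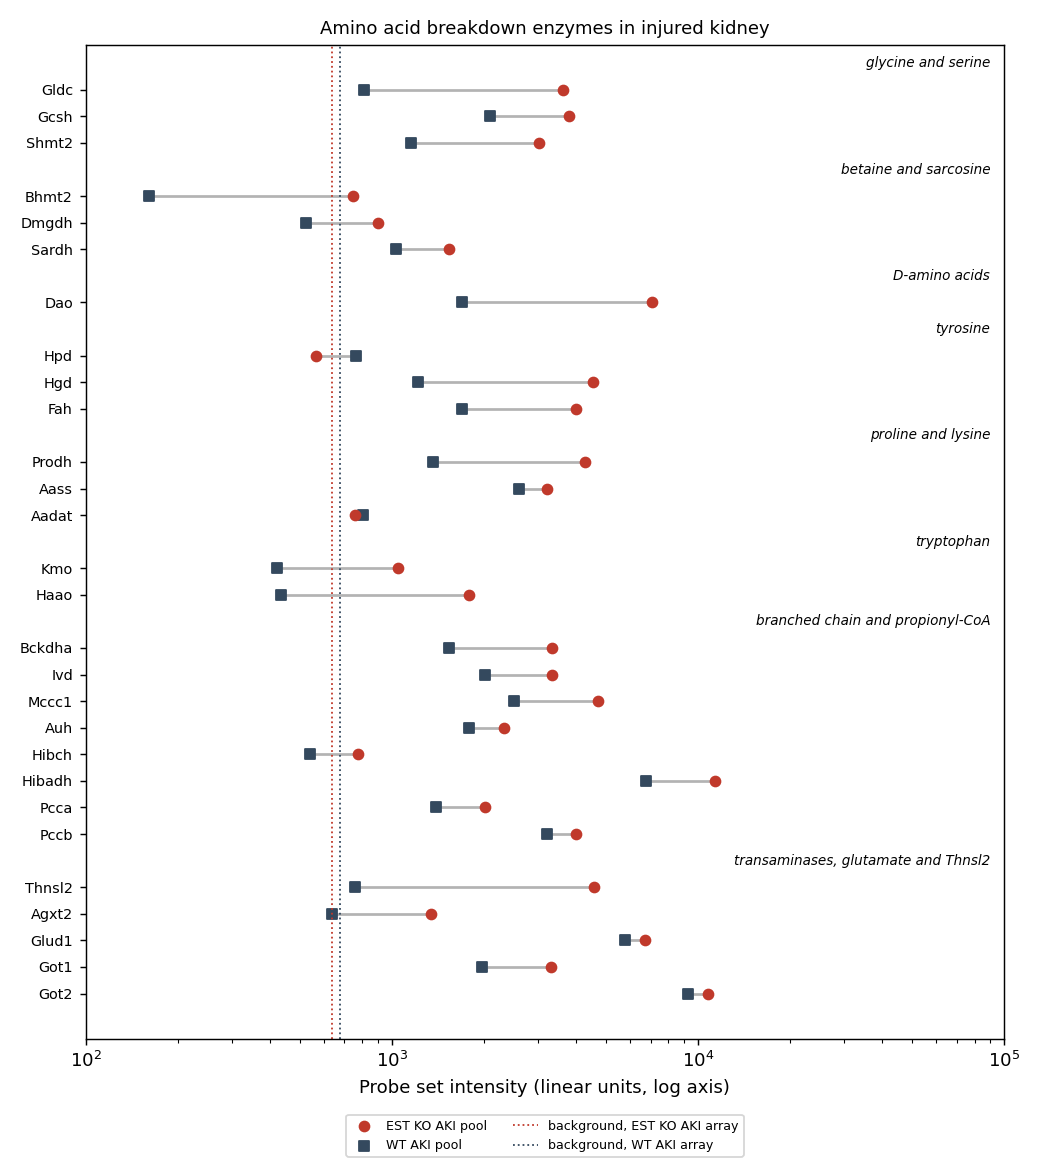
Intensity of the 28 measured enzymes in the EST KO AKI pool (circles) and the WT AKI pool (squares), 1 array each, on a log axis, grouped by pathway, with the background of each array as a dotted line. The EST KO AKI value lies to the right for all but Hpd and Aadat, and the widest gaps between values above background in both pools are those of Thnsl2, Gldc and Dao.

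**Figure D2:**
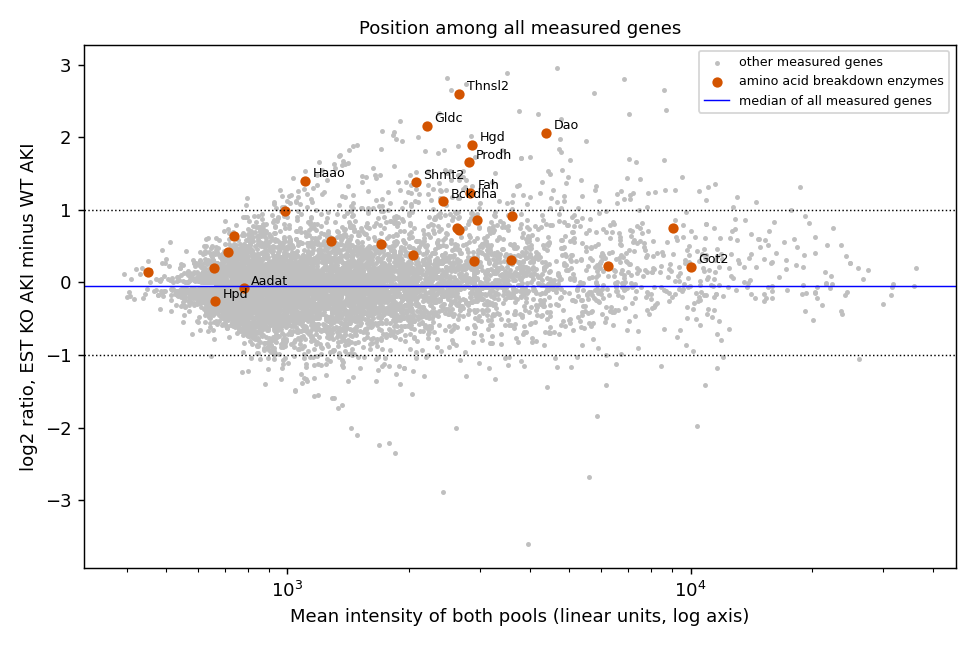
The log2 ratio (EST KO AKI minus WT AKI) against the mean intensity of both pools for 7346 measured genes with an order, the enzymes in orange, with dotted lines at 2-fold. The line at −0.06 is the median of all genes, and 9 enzymes lie above the upper dotted line and none below the lower one.

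Promoter windows from RefSeq (build GRCm38.p6, 250 bases before to 50 after a start site) were searched because so many members differed in one direction. Matches were looked for on both strands to GTTAATNAT, the core letters bound by HNF1, and to CAAAGTCCA, letters bound by HNF4A, a pair of transcription factors of the proximal tubule and the liver. The motifs do not overlap in letters. Of 36 members with a window, 2 held the HNF1 letters (5.56%), as did 0.94% of 27025 genes. Another 2 members held the HNF4A letters (5.56%), as did 0.56% of all genes. These are counts of 2 and say nothing of binding. Of the 4 genes, Agxt2, Aadat and Got2 were measured and Prodh2 was not. The windows of the measured genes are shown because their ratios spread widely: Agxt2 was at least 1.98-fold higher, Got2 1.16-fold higher and Aadat 1.06-fold lower in the EST KO AKI pool. Capitals mark the matched letters. They begin 21 bases before the start site in the Agxt2 window (chr15:10358283-10358582, plus strand), 72 before it in the Aadat window (chr8:60505874-60506173, plus strand) and 209 before it in the Got2 window (chr8:95888352-95888651, minus strand). In Aadat and Got2 the match is on the opposite strand.
Agxt2: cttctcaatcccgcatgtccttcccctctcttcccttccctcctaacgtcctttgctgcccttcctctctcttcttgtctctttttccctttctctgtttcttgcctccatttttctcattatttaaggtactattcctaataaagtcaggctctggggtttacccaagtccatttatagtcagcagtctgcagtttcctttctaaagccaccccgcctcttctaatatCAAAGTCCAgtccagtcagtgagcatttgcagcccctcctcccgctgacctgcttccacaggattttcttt
Aadat: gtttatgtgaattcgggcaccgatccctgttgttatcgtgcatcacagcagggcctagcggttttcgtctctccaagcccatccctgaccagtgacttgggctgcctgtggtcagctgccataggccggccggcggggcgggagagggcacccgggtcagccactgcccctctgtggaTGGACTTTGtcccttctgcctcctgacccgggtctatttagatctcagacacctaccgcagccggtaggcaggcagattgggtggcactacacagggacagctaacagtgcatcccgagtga
Got2: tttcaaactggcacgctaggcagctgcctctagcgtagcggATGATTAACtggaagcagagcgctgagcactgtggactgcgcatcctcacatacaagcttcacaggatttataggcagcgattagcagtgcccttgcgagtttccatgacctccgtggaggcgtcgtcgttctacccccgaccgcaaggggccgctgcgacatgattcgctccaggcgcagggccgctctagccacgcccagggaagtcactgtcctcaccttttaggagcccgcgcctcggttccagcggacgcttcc

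None of the 9 members that were at least 2-fold higher held either motif in its window. With shares of 0.94% and 0.56% over all genes, hardly any match could occur among so few members. The count thus says nothing of a role of either factor, which was not tested. Hnf4a itself read 6578 in the EST KO AKI pool and 2271 in the WT AKI pool, 2.90-fold higher. Its probe set is of a type that can read several transcripts.

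Dmgdh and Bhmt2 lie side by side on chromosome 13, and their promoter is shown because both start in it and run in opposite directions. The start site of Dmgdh is at 93674436 on the plus strand and that of Bhmt2 at 93674302 on the minus strand, with 133 bases between them. The window of Dmgdh (chr13:93674186-93674485, plus strand) overlaps that of Bhmt2 by 233 bases. Capitals mark the bases between the start sites.
Dmgdh and Bhmt2: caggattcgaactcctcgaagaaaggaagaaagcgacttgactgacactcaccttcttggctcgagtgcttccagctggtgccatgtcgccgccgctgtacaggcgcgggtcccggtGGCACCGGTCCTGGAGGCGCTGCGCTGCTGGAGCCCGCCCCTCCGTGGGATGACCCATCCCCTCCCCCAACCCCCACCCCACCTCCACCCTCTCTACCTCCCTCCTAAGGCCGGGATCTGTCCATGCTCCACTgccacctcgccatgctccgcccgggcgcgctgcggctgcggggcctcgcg

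Betaine gives a methyl group to homocysteine through the methyltransferase Bhmt, and the dimethylglycine that remains is turned to sarcosine by Dmgdh and to glycine by Sardh. Bhmt2, a close relative of Bhmt that prefers S-methylmethionine as the donor, read 745.1 in the EST KO AKI pool and 161.5 in the WT AKI pool, at least 1.10-fold higher. That probe set is of a type that can read several transcripts, and the other one of Bhmt2 lay below background in both pools. Dmgdh read 903.8 in the EST KO AKI pool and 522.9 in the WT AKI pool, at least 1.34-fold higher. Thus both genes of the shared start region passed background in the EST KO AKI pool alone, which leaves the size of their difference bounded from one side only. Sardh had 2 probe sets above both backgrounds, at 1539 and 968.6 in the EST KO AKI pool against 1035 and 685.9 in the WT AKI pool, and was 1.49-fold higher at the brighter and 1.41-fold at the other. Bhmt, the main enzyme of this step in liver, read 11.8 in the EST KO AKI pool and 16.9 in the WT AKI pool, far below background in both. Chdh, the choline dehydrogenase that makes betaine, is no member and read 1738 in the EST KO AKI pool and 733.6 in the WT AKI pool, 2.37-fold higher. The probe set of Chdh can read several transcripts.

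The glycine cleavage system splits glycine into carbon dioxide, ammonia and a one-carbon unit, and serine hydroxymethyltransferases exchange serine and glycine. Gldc, the decarboxylase that begins glycine cleavage (chromosome 19, 30098441 to 30175441), read 3620 in the EST KO AKI pool and 813.2 in the WT AKI pool. It was 4.45-fold higher, and of the 6115 genes above background in both pools 14 had a larger ratio. Gcsh, the lipoate carrier of the same complex, read 3798 in the EST KO AKI pool and 2099 in the WT AKI pool, 1.81-fold higher. The 2 subunits therefore differed from each other in ratio by 1.30 on the log2 scale, more than the probe set SD. Shmt2, the mitochondrial serine hydroxymethyltransferase, read 3015 in the EST KO AKI pool and 1157 in the WT AKI pool, 2.61-fold higher. Its second probe set above background read 1151 in the EST KO AKI pool and 467.8 in the WT AKI pool, at least 1.70-fold higher. The brightest probe set is of a type that can read several transcripts. Without such probe sets only the bound of at least 1.70-fold was left for Shmt2, short of 2-fold, with the true ratio not known. All 4 probe sets of Shmt1, the cytosolic form, lay below background in both pools.

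D-amino acid oxidase, Dao, is a peroxisomal enzyme that oxidises neutral D-amino acids and is abundant in the proximal tubule. It read 7086 in the EST KO AKI pool and 1697 in the WT AKI pool, 4.18-fold higher, at a probe set that can read several transcripts. Of the genes above background in both pools, 16 had a larger ratio. Ddo, the oxidase of acidic D-amino acids, had 4 probe sets, the brightest at 267.1 in the EST KO AKI pool and 64.8 in the WT AKI pool. All of them were below background in both pools.

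Tyrosine breakdown begins with the transaminase Tat, which is no member. Tat was below background in both pools (430.4 in the EST KO AKI pool and 514.9 in the WT AKI pool). Hpd, Hgd, the isomerase Gstz1 and Fah follow in the cytosol, in that order, to give fumarate and acetoacetate. The steps after Hpd were higher in the EST KO AKI pool. Hgd, homogentisate dioxygenase, read 4529 in the EST KO AKI pool and 1218 in the WT AKI pool, 3.72-fold higher. Fah, fumarylacetoacetate hydrolase, read 3992 in the EST KO AKI pool and 1699 in the WT AKI pool, 2.35-fold higher. Gstz1, which is no member, read 2276 in the EST KO AKI pool and 431.5 in the WT AKI pool, at least 3.37-fold higher. The first of the 4 enzymes, hydroxyphenylpyruvate dioxygenase Hpd, went the other way: it read 563.4 in the EST KO AKI pool, below background, and 764.9 in the WT AKI pool, lower by at least 1.20-fold. With no floor its log2 ratio was −0.44. Qdpr and Pcbd1 regenerate the biopterin cofactor of aromatic amino acid hydroxylases. Qdpr was 2.17-fold higher (8094 in the EST KO AKI pool and 3737 in the WT AKI pool). The probe set of Qdpr can read several transcripts. Pcbd1 was 2.60-fold higher (6183 in the EST KO AKI pool and 2382 in the WT AKI pool).

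Proline oxidation begins with proline dehydrogenase, Prodh, on the inner mitochondrial membrane. Prodh read 4280 in the EST KO AKI pool and 1361 in the WT AKI pool, 3.15-fold higher. The next enzyme of the path, Aldh4a1, read 1909 in the EST KO AKI pool and 998.2 in the WT AKI pool, 1.91-fold higher. Prodh2, which oxidises hydroxyproline, was below background in both pools at 57.5 in the EST KO AKI pool and 19.7 in the WT AKI pool.

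Aass, the bifunctional enzyme of the first steps of lysine breakdown, read 3208 in the EST KO AKI pool and 2609 in the WT AKI pool, 1.23-fold higher. Aadat, the transaminase of aminoadipate and of kynurenine, read 759.6 in the EST KO AKI pool and 804.0 in the WT AKI pool, 1.06-fold lower. Its direction turned when the arrays were centred on their medians (log2 0.03). Between these steps Aldh7a1 was 2.60-fold higher (2842 in the EST KO AKI pool and 1095 in the WT AKI pool), and further down Gcdh was at least 2.01-fold higher (1357 in the EST KO AKI pool and 593.8 in the WT AKI pool).

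Tryptophan breakdown through kynurenine leads to quinolinate and so to NAD. Kmo, the hydroxylase of kynurenine, read 1052 in the EST KO AKI pool and 421.6 in the WT AKI pool, at least 1.56-fold higher. Haao, the dioxygenase that makes the precursor of quinolinate, read 1786 in the EST KO AKI pool and 435.3 in the WT AKI pool, at least 2.64-fold higher. Kynu, the hydrolase between them, lay below background at both of its probe sets, at most 57.9 in the EST KO AKI pool and 124.0 in the WT AKI pool. Genes before Kmo were below background in both pools as well, namely Tdo2, Ido2 and Afmid. Kyat3, a kynurenine transaminase, was 2.21-fold higher (1581 in the EST KO AKI pool and 715.3 in the WT AKI pool).

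Leucine, isoleucine and valine share a transaminase, Bcat2, and the branched-chain ketoacid dehydrogenase complex, after which their paths part in the mitochondrial matrix. Of the 11 members of these paths and of propionyl-CoA breakdown, 8 were measured. All 8 were higher in the EST KO AKI pool at their brightest probe set, beside 43.6% of all measured genes. Pcca was lower at another probe set. Above background in both pools were 7 of the 8, while Hibch passed it in the EST KO AKI pool only and so had to be higher. The median log2 ratio of the 8 was 0.63. Bckdha, the E1 alpha subunit of the complex, read 3335 in the EST KO AKI pool and 1538 in the WT AKI pool. It was 2.17-fold higher and the only one of the 8 past 2-fold (12.5%, against 3.02% of all measured genes). Its partner Bckdhb (525.6 in the EST KO AKI pool and 479.0 in the WT AKI pool) and the transaminase Bcat2 (287.3 in the EST KO AKI pool and 412.9 in the WT AKI pool) were below background. The other parts of the complex, Dbt and Dld, were 1.60-fold and 1.26-fold higher, and the kinase Bckdk, which turns the complex off, at least 1.51-fold higher.

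In the leucine path, Ivd, isovaleryl-CoA dehydrogenase, read 3326 in the EST KO AKI pool and 2010 in the WT AKI pool, 1.65-fold higher, and a second probe set gave 1.61-fold. Mccc1, the biotin-carrying subunit of methylcrotonyl-CoA carboxylase, read 4709 in the EST KO AKI pool and 2498 in the WT AKI pool, 1.89-fold higher. All 3 probe sets of the other subunit, Mccc2, were below background, the brightest at 609.8 in the EST KO AKI pool and 397.1 in the WT AKI pool. Auh, the hydratase that follows, read 2319 in the EST KO AKI pool and 1786 in the WT AKI pool, 1.30-fold higher, and its other 5 probe sets were below background. Acat1, which releases acetyl-CoA at the end of ketone and isoleucine breakdown, was 2.42-fold higher (8188 in the EST KO AKI pool and 3382 in the WT AKI pool).

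In the valine path, Hibch, the hydrolase of hydroxyisobutyryl-CoA, read 778.2 in the EST KO AKI pool and 542.4 in the WT AKI pool, at least 1.15-fold higher. This was at a probe set that can read several transcripts. Hibadh, the dehydrogenase after it, had 2 bright probe sets that gave close ratios. They read 11354 and 10557 in the EST KO AKI pool against 6764 and 6681 in the WT AKI pool, 1.68-fold and 1.58-fold higher. Aldh6a1, the next enzyme, was 2.92-fold higher (7160 in the EST KO AKI pool and 2450 in the WT AKI pool).

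Propionyl-CoA, a common product of valine, isoleucine, methionine and threonine, is carboxylated by an enzyme of subunits Pcca and Pccb. Pccb read 3987 in the EST KO AKI pool and 3203 in the WT AKI pool, 1.24-fold higher. Pcca had no settled direction: its probe sets opposed each other. One read 2012 in the EST KO AKI pool and 1397 in the WT AKI pool, 1.44-fold higher, and the other 1428 in the EST KO AKI pool and 1930 in the WT AKI pool, 1.35-fold lower. The latter is of a type that can read several transcripts, and with such probe sets left out the log2 ratio of Pcca was 0.53. The steps that follow differed little, with Mcee 1.26-fold and Mmut 1.17-fold higher.

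Among transaminases and related enzymes, Thnsl2, a relative of bacterial threonine synthase (chromosome 6, 71128166 to 71144380), had the largest ratio of all members. It read 4591 in the EST KO AKI pool and 758.0 in the WT AKI pool, 6.06-fold higher, and 7 of the genes above background in both pools had a larger ratio. Agxt2, a mitochondrial transaminase that also breaks down asymmetric dimethylarginine, read 1339 in the EST KO AKI pool and 637.5 in the WT AKI pool, at least 1.98-fold higher. That bound is just short of the 2-fold used here, so Agxt2 is not among the 9, while its true ratio is not known, and Bckdha at 2.17-fold was the nearest member counted. Aspartate aminotransferases occur in a cytosolic form, Got1, and a mitochondrial form, Got2. Got1 read 3313 in the EST KO AKI pool and 1971 in the WT AKI pool, 1.68-fold higher. Got2 read 10760 in the EST KO AKI pool and 9259 in the WT AKI pool, 1.16-fold higher, and its second probe set above background gave 1.17-fold. Glud1, glutamate dehydrogenase, which releases ammonia from glutamate, read 6733 in the EST KO AKI pool and 5770 in the WT AKI pool, 1.17-fold higher at its brightest probe set. A second probe set read 6770 in the EST KO AKI pool and 4327 in the WT AKI pool, 1.56-fold higher. Glud1 at its brightest probe set and Got2 lay within the probe set SD.

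Of the 7 members with several probe sets above background, 6 went one way at all of them and 1, Pcca, did not. The log2 ratios of those probe sets differed by 0.02 in Got2, 0.04 in Ivd, 0.08 in Sardh, 0.09 in Hibadh, 0.42 in Glud1, 0.61 in Shmt2 and 0.96 in Pcca. The 8 members below background in both pools were Shmt1, Bhmt, Ddo, Prodh2, Kynu, Bckdhb, Bcat2 and Mccc2, and no direction is given for them.

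A further list of 53 amino acid genes outside the set, of which 44 had a probe set and 29 were measured, gave like counts. Of the 29, 27 were higher and 2 lower in the EST KO AKI pool, with a median log2 ratio of 0.60. At least 2-fold higher were 10 of them (34.5%), beside the 3.02% of all measured genes. They are 9 genes named above at such a fold and Grhpr, glyoxylate and hydroxypyruvate reductase, 2.44-fold higher (3268 in the EST KO AKI pool and 1341 in the WT AKI pool). The 2 lower genes were Uroc1, urocanate hydratase of histidine breakdown, lower by at least 1.42-fold (566.0 in the EST KO AKI pool and 904.8 in the WT AKI pool), and Glul, glutamine synthetase, 1.05-fold lower (4550 in the EST KO AKI pool and 4781 in the WT AKI pool).

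Marker genes of the proximal tubule were higher in the same pool as the enzymes. All 15 of its represented markers were measured, 14 were higher in the EST KO AKI pool and 8 at least 2-fold, with a median log2 ratio of 1.05. Among all measured genes 43.6% were higher and 3.02% at least 2-fold higher. Their summed intensity was 118553 in the EST KO AKI pool and 56500 in the WT AKI pool, 766.7 to 28347 for single markers in the EST KO AKI pool and 77.3 to 16871 in the WT AKI pool. In pooled tissue, fewer tubule cells and less RNA per tubule cell cannot be told apart, and the part of tubule content in the enzyme ratios was not tested. Tubular injury genes ran the other way: all 6 measured were lower in the EST KO AKI pool, with a median of −0.98 and a summed intensity, over 7 represented genes, of 57416 in the EST KO AKI pool and 101476 in the WT AKI pool. All 6 measured macrophage and neutrophil genes (median −0.71) and all 6 endothelial genes (median −0.29) were lower as well. Being lower was common, with 4084 of the 7480 measured genes. The endothelial median was close to the lower quartile of all measured genes with an order (−0.28). Of 4 measured collecting duct genes (median −0.32) and 4 fibroblast genes (median −0.35), 3 each were lower and 1 each higher. Loop and distal tubule genes were mixed: of 5 measured, 3 were higher and 2 lower (median 0.44), with Slc12a1 2.28-fold higher. A rise was thus not limited to proximal tubule markers.

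Hepatocyte markers were read because of the label that names liver. Of 11 represented markers, 6 were below background in both pools, namely Alb, Apoa1, Apoa2, Ahsg, Tat and Hamp. Alb, serum albumin, read 522.3 in the EST KO AKI pool and 487.9 in the WT AKI pool, and Ahsg, fetuin A, 36.4 in the EST KO AKI pool and 20.0 in the WT AKI pool. Apob and Fgb were above background in the WT AKI pool only, and Cps1, Ttr and Cyp2e1 in both. The summed intensity of all 11 represented markers was 35658 in the EST KO AKI pool and 17789 in the WT AKI pool, most of it from Cyp2e1 and Ttr. Cyp2e1, a cytochrome that mouse proximal tubules also express, was 1.79-fold higher (20655 in the EST KO AKI pool and 11569 in the WT AKI pool). Ttr, transthyretin, was 6.97-fold higher (11957 in the EST KO AKI pool and 1716 in the WT AKI pool). Its probe set can read several transcripts, and the part of Ttr in the enzyme ratios was not tested. Some amino acid genes well known from hepatocytes were below background in both pools too. Bhmt read 11.8 in the EST KO AKI pool and 16.9 in the WT AKI pool, and Tat, counted above, 430.4 and 514.9. Tdo2 read 368.8 in the EST KO AKI pool and 515.7 in the WT AKI pool. Other amino acid genes were above background: Hgd and Fah in both pools, Hpd and Uroc1 in the WT AKI pool only. These are examples, and a part of liver in the tissue was not tested.

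**Figure D3:**
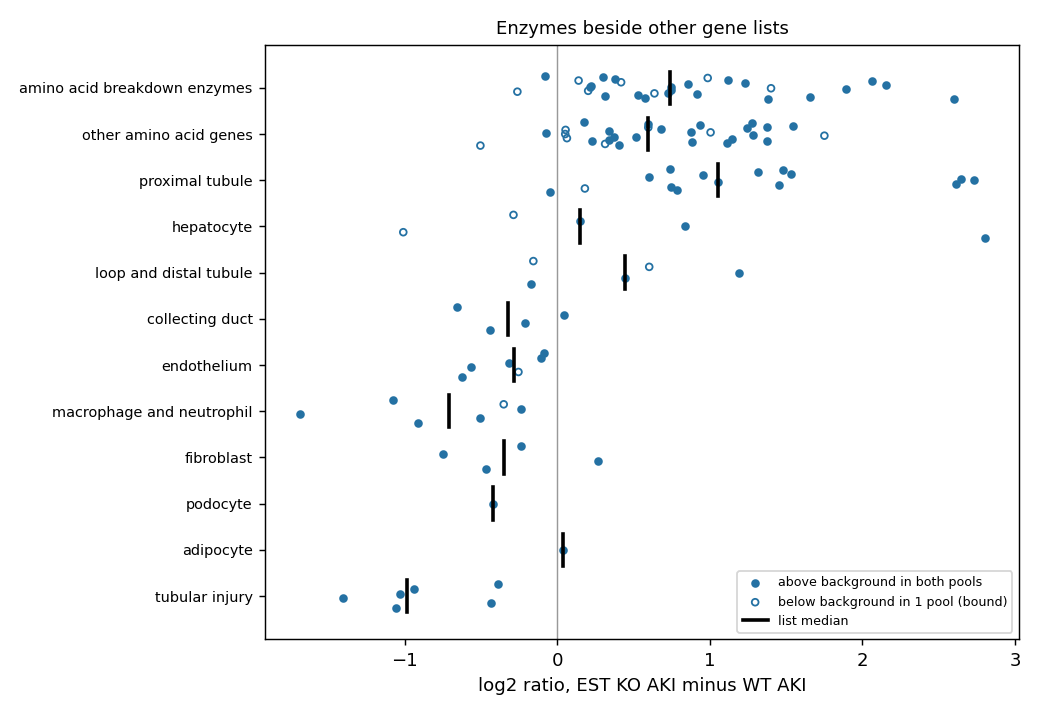
The log2 ratio (EST KO AKI minus WT AKI) of each measured gene, by list, with a bar at the list median. Filled points are genes above background in both pools. Open points are genes below it in 1 pool, whose fold, higher or lower, is at least that shown. The medians of the enzymes (0.74), the other amino acid genes (0.60) and the proximal tubule markers (1.05) lie right of 0. So do those of loop and distal tubule genes (0.44) and hepatocyte markers (0.15). The median of tubular injury genes (−0.98) lies left of 0.

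The 2-fold count depended in part on how dim values and scale were treated. It ran from 7 of 28 members with a pseudocount to 12 of 28 with no floor. The shares of all measured genes at least 2-fold higher were 1.78% and 4.43% there. With background at the 75th percentile it was 12 of 32 members, beside 2.83% of all measured genes. Without probe sets that can read several transcripts it was 7 of 25, beside 3.05%. Thnsl2, Gldc, Hgd, Prodh and Haao were at least 2-fold higher under every alternative, and Dao under all that read it. With a pseudocount Fah (log2 0.98) and Bckdha (log2 0.86) were under 2-fold. When multi-transcript probe sets were left out, Shmt2 had a bound of at least log2 0.77, so it was not counted, while its true ratio is not known. Agxt2, Kmo and Bhmt2 passed 2-fold with no floor. The log2 ratio of Bhmt2 ran from a bound of 0.14 to 2.21 with no floor, the widest range of any member. Centring the arrays on their medians moved the median of all measured genes by 0.12, to 0.06, and that of the enzymes to 0.85, so that the distance of the enzymes from all genes was 0.79 in both. It also turned the split of all genes past 2-fold to 301 higher and 70 lower, beside 226 and 105.

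**Figure D4:**
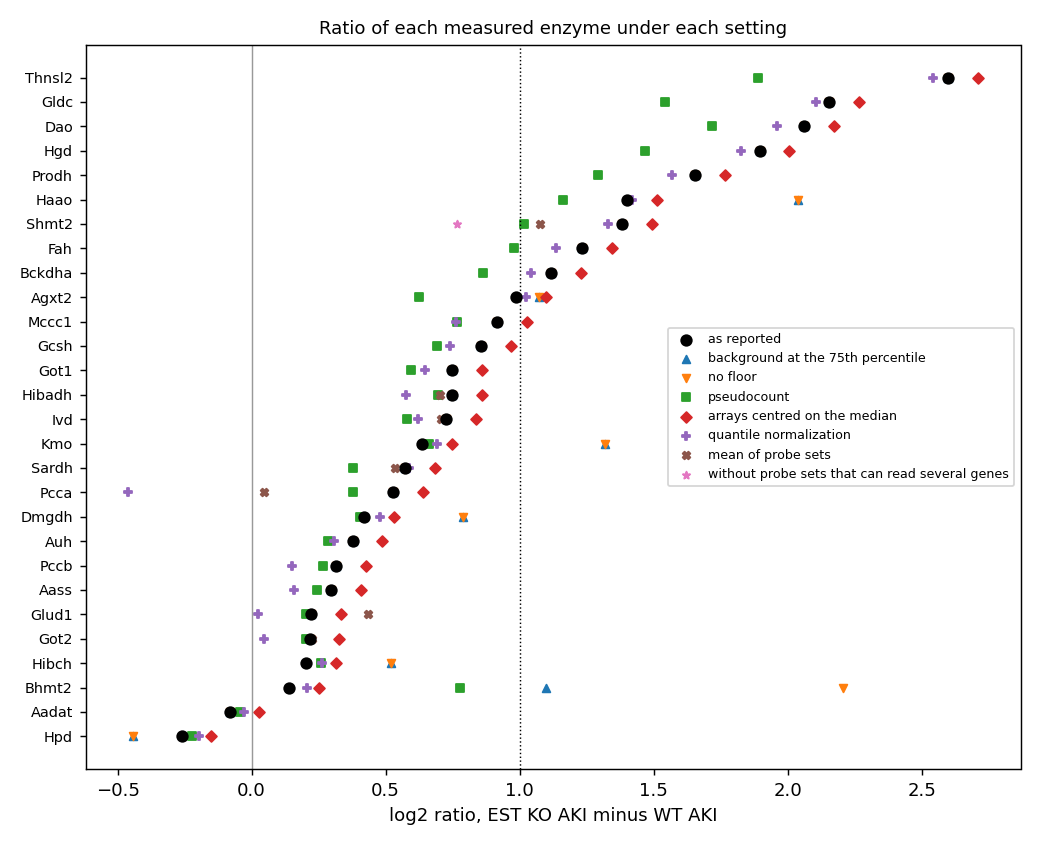
The log2 ratio (EST KO AKI minus WT AKI) of each of the 28 measured enzymes as reported (black) and under 7 other settings, with a dotted line at 2-fold, ordered by the reported value. Values lie right of 0 at every setting for all but Pcca, Aadat and Hpd, and Bhmt2 spans the widest range.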

How the data were processed

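The authors' deposited values were used: linear intensities of 45101 probe sets on each array. Per the labels' protocols, total RNA was extracted with Trizol and biotinylated cRNA was made from 8 ug of it by the standard Affymetrix protocol. Neither the summarising method nor the scanner software is given in the sources used here. From the values, each array had been scaled to a mean of 500.0 after the lowest and highest 2% were dropped, so no further scaling was applied (medians 242.4 in the EST KO AKI pool and 261.8 in the WT AKI pool). Above background were 24.2% of probe sets in the EST KO AKI pool and 24.0% in the WT AKI pool.

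GEO's platform annotation gave 34958 probe sets a single symbol, 932 several and 9211 none. Entrez IDs gave the current symbol in a RefSeq table of GRCm38.p6 (34754 matched). The probe set brightest in the mean over the arrays stood for a gene. Values below background were held at it before log2 was taken, and 134 measured genes had no order because the brighter value lay under the other array's background. Calculations used Python 3.11.15, pandas 2.3.3 and numpy 2.4.6, and the ratio step was tested on simulated arrays with known folds. Every member is named or counted, and of the other amino acid list the genes at least 2-fold apart; further genes of that list were chosen after their values were seen. The members and lists were chosen with earlier results of these data known. Alternatives covered the background level, the floor, the scaling and the choice of probe set. The precision is limited by the number of arrays, 1 per genotype. Promoter sequences are RefSeq's, for 36 of 37 members.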

Additional observations from a re-analysis of the deposited data

How the results depend on the processing

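The direction of the members' median held under all 7 alternatives, between 0.63 (quantile normalization) and 0.85 (arrays centred on the median), and no alternative gave a member lower by 2-fold or more. The median of the other amino acid list was 0.94 with no floor, against 0.60, because values below background then count in full. Of 193 ratios of single members under the alternatives, 171 moved by less than the probe set SD and 22 by more. Of those 22, 8 came with a pseudocount, 5 each with no floor and with background at the 75th percentile, 2 with the mean of probe sets, and 1 each with quantile normalization and when probe sets of possible multi-gene reading were left out. Pcca stood at −0.46 under quantile normalization, because its other, opposed probe set was then the brightest. Over all genes, those at least 2-fold higher and lower numbered 226 and 105 as reported, 133 and 39 with a pseudocount, 331 and 197 with no floor, 319 and 204 with background at the 75th percentile, and 301 and 70 after centring. No paired analysis was possible because each genotype had 1 pool and 1 array. Signal over background limits 15 members: 8 below it in both pools and 7 below it in 1.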

Other observations

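Split by where the enzymes are known to act, a grouping made after their values were seen, the 20 measured mitochondrial members had a median log2 ratio of 0.61, and 4 of them were at least 2-fold higher in the EST KO AKI pool: Gldc, Shmt2, Prodh and Bckdha. The 8 measured members that act in the cytosol or peroxisome, with Thnsl2 counted here, had a median of 1.32, and 5 were at least 2-fold higher: Dao, Hgd, Fah, Haao and Thnsl2. Of all measured genes 3.02% were at least 2-fold higher. Folds that are bounds enter both medians, 4 of them in the mitochondrial group and those of Bhmt2, Haao and Hpd in the other. For Hpd the bound is on how far it was lower. The difference between these groups was not tested. The mitochondrial group ran from −0.08 (Aadat) to 2.15 (Gldc), so the groups overlap over most of their range.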
